A study of Mus musculus with 30 samples.

Results

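The class 3 semaphorins are secreted guidance proteins, and with their receptors, the neuropilins and the plexins, they form one of the pathways that steer motor axons. The members of the pathway studied here were chosen by name: the ligands Sema3a, Sema3c, Sema3d, Sema3e and Sema3f, the neuropilins Nrp1 and Nrp2, and the plexins Plxna2, Plxna4 and Plxnd1. All 10 were found among the 45706 genes listed in the RNA files, and all 10 passed the filter on low counts in every fit. The study asked what the motor neuron transcription factor Mnx1 (also called Hb9) controls in motor neurons made from mouse embryonic stem (ES) cells. RNA was measured in 2 libraries each of HD motor neurons, EH motor neurons, wild-type motor neurons and wild-type ES cells. HD and EH are line names that the labels do not explain, and both carry the genotype label Mnx1KO. All motor neurons were collected on day 6 of a directed differentiation with retinoic acid (1 µM), the Smoothened agonist SAG (1 µM), doxycycline (1 µM) and the Notch pathway inhibitor DAPT (5 µM). What doxycycline induces in these lines is not stated in the labels. The authors also deposited 1 peak list for each of 5 histone marks in HD and in wild-type motor neurons, and 1 list of Mnx1 regions in wild-type motor neurons, whereas EH has RNA only. The labels do not say that replicates were separate cultures, so every p-value measures only the spread between these libraries. The cultures were measured in bulk, where fewer cells of a type and less RNA per cell cannot be told apart.

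A class 3 semaphorin binds a neuropilin, which has hardly any signalling domain of its own, and the neuropilin pairs with a plexin, which carries the signal into the growth cone. Sema3a acts mainly through Nrp1 and Sema3f mainly through Nrp2, while Sema3e can bind Plxnd1 without a neuropilin. In the mouse embryo, Sema3a and Nrp1 time the entry of motor axons into the limb, Sema3f and Nrp2 take part in the dorsal or ventral choice of limb motor axons, and Sema3e with Plxnd1 takes part in the choice of sensory partners by some motor pools. Neuropilins also bind VEGF, a growth factor of blood vessels.

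Mnx1 RNA was present in the libraries labelled as knockouts. It stood at 377 and 312 TPM (transcripts scaled to a fixed library total, a level corrected for transcript length) in HD, 446 and 565 TPM in EH, 395 and 343 TPM in wild-type motor neurons and 0.36 and 0.29 TPM in ES cells, and a count per gene does not show a change within the gene. Library totals ranged from 11167544 to 53223300 expected counts over all genes. The summed level of 7 motor neuron markers (Isl1, Isl2, Lhx3, Mnx1, Chat, Slc18a3 and Slc5a7) was 1392 to 2221 TPM over the 6 motor neuron libraries, against 2.40 and 2.62 TPM in ES cells. Markers of other cells were also present in the motor neuron libraries. The summed level of 6 trophoblast markers (Tpbpa, Ctsq, Ctsj, Prl2a1, Prl3d1 and Hand1) was 446 and 589 TPM in HD, 102 and 33.5 TPM in EH and 564 and 490 TPM in wild-type motor neurons. All 6 were lower in EH than in wild type by the edgeR test, 0 of 6 differed in HD, and none was at 0 in all motor neuron libraries.

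In the Mnx1 list, 2 of the 8 genes with a RefSeq promoter record had a region over their listed start, Nrp2 and Plxna2. Their promoters, from 250 bases before to 50 bases after the listed start in the RefSeq record (GRCm38.p6, the assembly of mm10), are printed because they hold those regions. The Nrp2 promoter is chr1:62703067-62703366 and that of Plxna2 is chr1:194619579-194619878, both on the plus strand. Capitals mark the core letters TAAT that homeodomain proteins commonly bind, looked for on both strands, so that ATTA in capitals is a match on the other strand.
Nrp2: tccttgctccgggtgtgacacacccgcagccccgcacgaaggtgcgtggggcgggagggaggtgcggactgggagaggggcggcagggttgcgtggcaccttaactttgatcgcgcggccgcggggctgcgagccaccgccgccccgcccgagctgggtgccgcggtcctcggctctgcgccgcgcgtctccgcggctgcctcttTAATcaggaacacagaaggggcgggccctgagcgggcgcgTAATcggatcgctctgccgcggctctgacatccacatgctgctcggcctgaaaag
Plxna2: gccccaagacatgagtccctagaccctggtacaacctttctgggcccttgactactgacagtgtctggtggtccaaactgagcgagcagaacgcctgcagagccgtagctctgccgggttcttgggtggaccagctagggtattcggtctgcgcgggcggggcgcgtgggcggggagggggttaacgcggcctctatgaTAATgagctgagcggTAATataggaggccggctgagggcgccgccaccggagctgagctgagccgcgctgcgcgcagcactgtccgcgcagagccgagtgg
Of the 300 bases, 241 lay within the Mnx1 region at Nrp2 and 165 within that at Plxna2. TAAT begins 45 and 5 bases before the start in Nrp2, and 51 and 36 bases before it in Plxna2. The letters are common: 51.8% of 21263 promoters of this length hold TAAT, and 6 of the 8 promoters found here did. The longer forms TAATTA and TAATTG, held by 4.53% and 6.83% of promoters, were in none of the 8. The E-box letters CANNTG were in 5 of the 8, against 69.0% of all promoters. Promoters of Sema3f and Plxna4 were not matched.

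In wild-type motor neurons, 9 of the 10 genes were higher than in ES cells and none was lower, in a comparison that asks what the differentiation changed. This stands against 75.3% of 17770 genes called in either direction and 38.8% called higher (edgeR quasi-likelihood test, Benjamini-Hochberg adjusted p under 0.05). The median log2 fold change of the 10 was 3.75, against 0.02 over all genes tested. The levels in wild-type motor neurons differed widely between the genes.

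Among the ligands, Sema3a, the prototype repellent of motor and sensory axons, had 18.6 and 17.1 TPM in wild-type motor neurons, against 0.19 and 0.19 TPM in ES cells. Sema3d, which guides axons in zebrafish and vessels in the mouse, had 39.8 and 33.5 TPM in wild-type motor neurons, against 0.13 and 0.17 TPM in ES cells. The log2 fold changes were 6.01 ± 0.18 for Sema3a and 7.38 ± 0.30 for Sema3d (SE; edgeR adjusted p = 1.16e-07 and 3.48e-07). Both genes thus stood below 0.2 TPM in both ES cell libraries. Sema3f, the main ligand of Nrp2, had 55.4 and 51.8 TPM in wild-type motor neurons, against 3.50 and 3.13 TPM in ES cells, a log2 fold change of 3.83 ± 0.14 (adjusted p = 2.06e-07, edgeR). Sema3c, which guides cortical axons and the cells of the cardiac outflow tract, had 12.6 and 12.0 TPM in wild-type motor neurons, against 0.70 and 1.86 TPM in ES cells, a log2 fold change of 2.98 ± 0.37 (adjusted p = 0.00011, edgeR). Sema3e was the exception. It had 8.15 and 10.3 TPM in wild-type motor neurons, against 6.63 and 10.1 TPM in ES cells, so that the groups overlapped, and its log2 fold change of -0.53 ± 0.36 did not pass the test (adjusted p = 0.206, edgeR) and was positive, at 0.14, on the log2(TPM + 1) scale.

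Nrp1 was the highest of the 10 genes in all 3 motor neuron groups. It had 131 and 117 TPM in wild-type motor neurons, above 91.2% of the 15565 genes tested among motor neurons, against 0.31 and 0.58 TPM in ES cells. Its log2 fold change was 7.48 ± 0.31 (adjusted p = 3.63e-07, edgeR). Nrp2 had 27.3 and 27.04 TPM in wild-type motor neurons, against 10.1 and 7.78 TPM in ES cells, a log2 fold change of 0.95 ± 0.17 (adjusted p = 0.000913, edgeR). Nrp2 was therefore the highest of the 10 by mean level in ES cells, where its range overlapped that of Sema3e, and Nrp1 was then among the lowest.

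The 3 plexins were all higher in wild-type motor neurons than in ES cells. Plxna2, a partner of the neuropilins, had 22.6 and 24.4 TPM in wild-type motor neurons, against 1.97 and 2.25 TPM in ES cells. Plxnd1, the receptor of Sema3e, had 8.26 and 8.12 TPM in wild-type motor neurons, against 0.53 and 0.63 TPM in ES cells. Plxna4, a receptor of Sema3a signals in sensory and sympathetic axons, was the lowest of the 10 in wild-type motor neurons at 1.68 and 1.67 TPM, above 12.5% of the genes tested, against 0.07 and 0.08 TPM in ES cells. Their log2 fold changes were 3.51 ± 0.15, 3.66 ± 0.21 and 3.87 ± 0.19, in the order named (edgeR adjusted p from 4.34e-07 to 1.67e-06).

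By mean TPM in wild-type motor neurons the order was Nrp1, Sema3f, Sema3d, Nrp2, Plxna2, Sema3a, Sema3c, Sema3e, Plxnd1 and Plxna4, and the ranges of the 2 libraries overlapped between neighbours only for Sema3e and Plxnd1. The order differed in both lines. In HD Plxna2 and Nrp2 lay above Sema3d, Sema3c above Sema3a and Plxnd1 above Sema3e, and the ranges overlapped between Nrp2 and Sema3d and between Plxnd1 and Sema3e. In EH Sema3d stood second and Sema3e last, and the ranges overlapped between Sema3c and Sema3a and between Plxna4 and Sema3e.

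**Figure D1:**
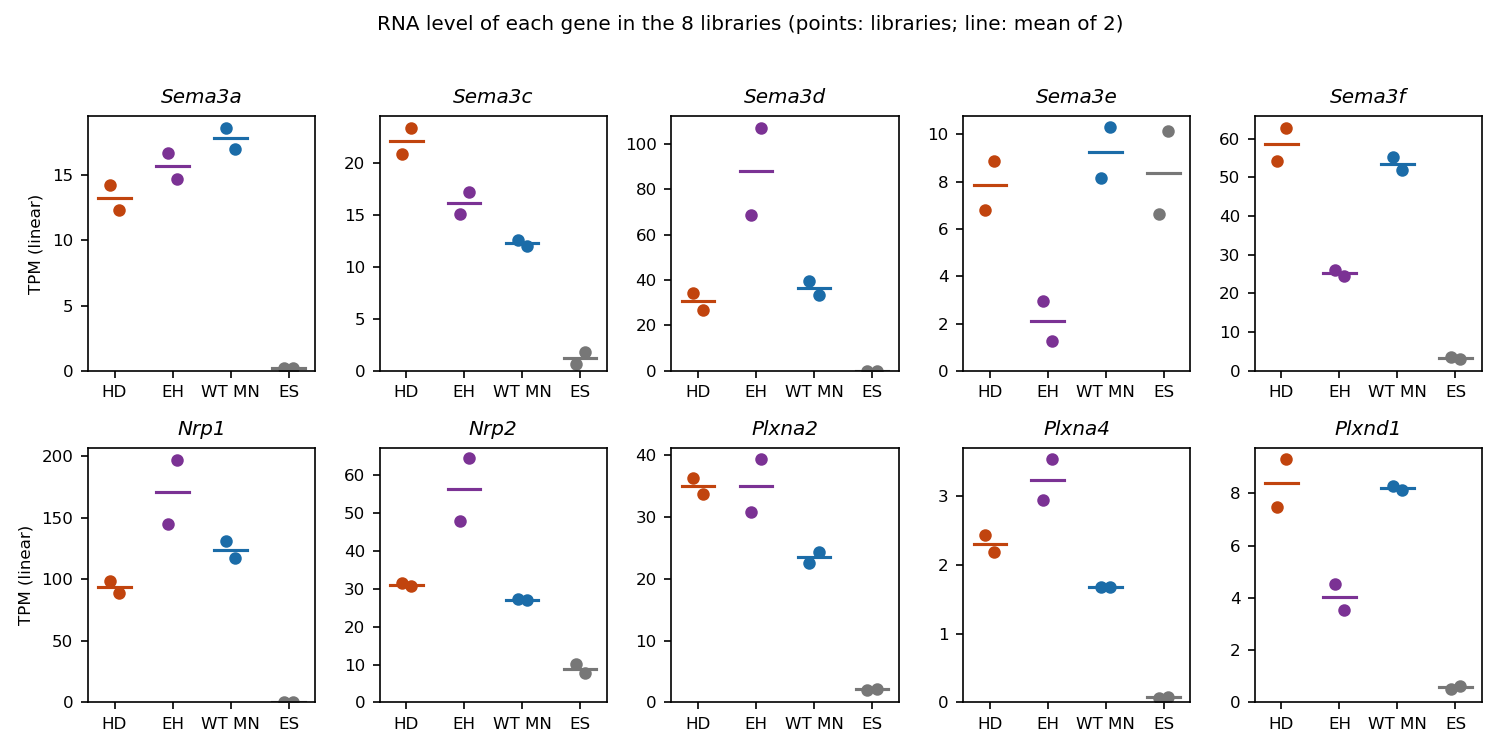
RNA level of the 10 genes in TPM (linear axes from 0, a scale per gene) in HD, EH and wild-type motor neurons (WT MN) and ES cells (ES); each point is a library and each line the mean of 2. Sema3d and the neuropilins are highest in EH, Sema3e, Sema3f and Plxnd1 are lowest among motor neurons in EH, and Sema3e is the gene whose ES cell level lies in the range of wild-type motor neurons.

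Members of the rest of the pathway were also called higher in wild-type motor neurons than in ES cells, in lists to be read against 38.8% of all genes called higher and 36.5% called lower. Of other class 3 semaphorins and plexins, 5 of 7 tested were higher and none was lower, among them Plxnc1 by a log2 fold change of 2.70 ± 0.20. Of the transmembrane and anchored semaphorins, 10 of 13 were higher and 2 lower, with Sema6d at 7.29 ± 0.31 and Sema4c at 4.58 ± 0.24. Of 23 co-receptors and intracellular mediators, 20 were higher and 1 lower. Dpysl4, of the family of collapsin response mediators that act downstream of Sema3a, rose by 5.30 ± 0.17, and L1cam, an adhesion molecule that binds Nrp1, by 7.29 ± 0.31. Rnd1, a small GTPase that binds plexins, was the mediator that was lower, with a log2 fold change of -2.10 ± 0.34 (for each gene named, the adjusted p by edgeR was at most 0.000549). VEGF ligands and receptors went both ways, with 3 of 8 higher and 4 of 8 lower.

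The test of HD against wild type asks what the line changed. Few genes were called in it, in this pathway and among all genes. Of the 10 genes 1 was called, Sema3c, which was higher in HD, against 0.173% of 15565 genes called in either direction, 0.135% called higher and 0.0385% called lower. The median log2 fold change of the 10 was 0.01, against -0.01 over all genes tested. At an unadjusted p of 0.05, 5 of the 10 genes passed, as did 5.6% of all genes tested. The HD and wild-type libraries did not overlap for 6 of the 10 genes, nor for 41.6% of all genes tested. The number of calls moved with the fit. With the 4 libraries of HD and wild type alone, 336 genes and 2 of the 10 were called. With a block for the replicate number, 0 genes and 0 of the 10 were called. The few calls therefore do not show that HD differed little from wild type.

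Sema3c had 20.9 and 23.4 TPM in HD, against 12.6 and 12.0 TPM in wild-type motor neurons, so the groups did not overlap. It was 1.78-fold higher, a log2 fold change of 0.83 ± 0.10 (adjusted p = 0.0482, edgeR). The call was lost without any one of the 2 HD and 2 wild-type libraries and in 3 other settings, with the log2 fold change between 0.79 and 0.88 in all 12 alternatives and the adjusted p between 2.56e-06 and 0.622. Its promoter, chr5:17574566-17574865 on the plus strand, is shown because Sema3c was the gene called in HD. It is rich in CpG, with 75.7% G and C and a ratio of observed to expected CpG of 0.98, against medians of 56.3% and 0.57 over all promoters, and TAAT begins 116 bases before the start.
Sema3c: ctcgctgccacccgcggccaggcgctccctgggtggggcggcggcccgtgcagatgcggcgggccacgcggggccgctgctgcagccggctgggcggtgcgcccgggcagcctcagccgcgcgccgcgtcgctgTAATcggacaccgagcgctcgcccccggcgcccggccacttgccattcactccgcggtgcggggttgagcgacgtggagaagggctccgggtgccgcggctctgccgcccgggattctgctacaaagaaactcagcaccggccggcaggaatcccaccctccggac

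Plxna2 had 36.3 and 33.8 TPM in HD, against 22.6 and 24.4 TPM in wild-type motor neurons. The groups did not overlap, but the log2 fold change of 0.56 ± 0.14 did not pass (adjusted p = 0.342, edgeR). With DESeq2, with the 4 libraries of HD and wild type alone, and without either EH library, Plxna2 was called, and the adjusted p over the alternatives ranged from 0.00946 to 1.0. Nrp1 had 98.6 and 88.9 TPM in HD, against 131 and 117 TPM in wild-type motor neurons, a log2 fold change of -0.39 ± 0.15 that did not pass (adjusted p = 0.808, edgeR). Sema3a stood at 14.2 and 12.3 TPM in HD, against 18.6 and 17.1 TPM in wild-type motor neurons, and its log2 fold change of -0.39 ± 0.13 did not pass (adjusted p = 0.649, edgeR).

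The other 6 genes did not pass the test in HD either. Plxna4 had 2.43 and 2.18 TPM in HD, against 1.68 and 1.67 TPM in wild-type motor neurons, and Nrp2 had 31.5 and 30.7 TPM in HD, against 27.3 and 27.04 TPM in wild-type motor neurons. Their log2 fold changes of 0.47 ± 0.15 and 0.21 ± 0.14 did not pass (adjusted p = 0.61 and 0.977, edgeR). The groups overlapped for Sema3d, Sema3e, Sema3f and Plxnd1, whose log2 fold changes were between -0.21 and 0.05. Sema3c passed narrowly with an SE of 0.10, and the other genes had larger SEs, from 0.12 for Sema3f to 0.36 for Sema3e. A difference of the size seen for Sema3c could thus go uncalled in these genes.

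In the rest of the pathway, 0 of 6 other class 3 semaphorins and plexins, 0 of 13 transmembrane and anchored semaphorins and 0 of 6 VEGF genes were called in HD by edgeR. Of 23 co-receptors and mediators, 1 was called. This was Chl1, an adhesion molecule that binds Nrp1 and takes part in Sema3a responses. Chl1 had 39.2 and 35.3 TPM in HD, against 8.55 and 9.99 TPM in wild-type motor neurons, a log2 fold change of 2.01 ± 0.14 (adjusted p = 0.0102, edgeR). Plxnc1, a plexin that binds Sema7a, had 7.97 and 7.59 TPM in HD, against 4.92 and 3.40 TPM in wild-type motor neurons, and its log2 fold change of 0.94 ± 0.18 did not pass (adjusted p = 0.149, edgeR).

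EH motor neurons differed from wild-type motor neurons in most of these genes. Of the 10 genes, 5 were higher in EH (Sema3c, Sema3d, Nrp2, Plxna2 and Plxna4) and 3 were lower (Sema3e, Sema3f and Plxnd1), against 21.2% of 15565 genes called in either direction, 9.61% higher and 11.6% lower. The 2 libraries of EH did not overlap those of wild type for any of the 10 genes, which held for 60.6% of all genes tested. The median log2 fold change of the 10 was 0.43, against 0.00 over all genes tested. HD and EH are compared with the same wild-type libraries, so the values of both are given side by side without a measure of likeness.

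Of the ligands, Sema3f had the smallest adjusted p. It had 26.2 and 24.5 TPM in EH, against 55.4 and 51.8 TPM in wild-type motor neurons, and HD lay at 54.2 and 62.9 TPM. It was 2.49-fold lower in EH than in wild type, a log2 fold change of -1.31 ± 0.12 (adjusted p = 0.00346, edgeR). Sema3f was the gene whose call held under all 12 alternatives, with an adjusted p of at most 0.0482. Without either wild-type library, it was the 1 gene of the 10 still called.

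Sema3e had 2.96 and 1.25 TPM in EH, against 8.15 and 10.3 TPM in wild-type motor neurons. It was 4.28-fold lower, a log2 fold change of -2.10 ± 0.38 (adjusted p = 0.0131, edgeR), and the EH libraries differed from each other by more than 2-fold. Its receptor Plxnd1 was lower in the same libraries. Plxnd1 had 4.52 and 3.54 TPM in EH, against 8.26 and 8.12 TPM in wild-type motor neurons, a log2 fold change of -1.003 ± 0.20 (adjusted p = 0.0161, edgeR). Over the 6 motor neuron libraries the log2(TPM + 1) levels of Sema3e and Sema3f each ran closest, among the other 9 genes, to those of Plxnd1 (Pearson r = 0.98 for both, 6 libraries). These correlations are descriptions of 6 libraries among which the 2 EH libraries stand apart.

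The 6 trophoblast markers named above were lower in the same EH libraries as these 3 genes, and of 7 endothelial markers tested 2 were lower (Cdh5 and Esam) and 1 higher (Tek). The summed endothelial level was 69.2 and 38.8 TPM in EH, against 142 and 169 TPM in wild-type motor neurons, of which Cdh5 made up 40.8 and 18.0 TPM in EH and 103 and 122 TPM in wild-type motor neurons. The other genes closest to Plxnd1 over the 6 libraries, among 9850 genes of at least 10 TPM, were Plac8 (r = 0.999) and Gys1 (r = 0.997). Those closest to Sema3e were Cdh3 (r = 1.00), which encodes P-cadherin, and Fth1 (r = 0.999). Those closest to Sema3f were Cnnm2 (r = 0.999) and Grin1 (r = 0.997), which encodes a subunit of the NMDA receptor. The part of the trophoblast and endothelial markers in the lower Sema3e, Sema3f and Plxnd1 of EH was not tested.

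Sema3d had 68.7 and 107 TPM in EH, against 39.8 and 33.5 TPM in wild-type motor neurons. It was 2.47-fold higher, a log2 fold change of 1.31 ± 0.22 (adjusted p = 0.0114, edgeR). Sema3c was also higher, with 15.1 and 17.2 TPM in EH, against 12.6 and 12.0 TPM in wild-type motor neurons, by 0.37 ± 0.10 (adjusted p = 0.0394, edgeR), a call that held in 4 of the 12 alternatives. Sema3a had 16.7 and 14.7 TPM in EH, against 18.6 and 17.1 TPM in wild-type motor neurons, with a log2 fold change of -0.09 ± 0.13 that did not pass (adjusted p = 0.639, edgeR) and turned to 0.04 without wild-type replicate 1. The summed level of the 5 ligands was 130 and 165 TPM in EH, against 134 and 125 TPM in wild-type motor neurons, and so the ranges of the sums overlapped while the makeup differed.

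Both neuropilins had higher levels in EH, and Nrp2 passed the test. Nrp2 had 48.0 and 64.5 TPM in EH, against 27.3 and 27.04 TPM in wild-type motor neurons, a log2 fold change of 1.07 ± 0.14 (adjusted p = 0.00683, edgeR). Nrp1 had 145 and 197 TPM in EH, against 131 and 117 TPM in wild-type motor neurons, with 0.48 ± 0.15 (edgeR adjusted p = 0.0649; called in 3 of the 12 alternatives). The summed level of both was 193 and 262 TPM in EH, against 158 and 144 TPM in wild-type motor neurons. Summed motor neuron markers were 1825 and 2221 TPM in the same EH libraries, against 1693 and 1432 TPM in wild-type motor neurons, and 1 of 7, Isl1, was called higher.

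Of the plexins, Plxna2 and Plxna4 were higher in EH. Plxna4 had 2.94 and 3.53 TPM in EH, against 1.68 and 1.67 TPM in wild-type motor neurons, a log2 fold change of 0.97 ± 0.15 (adjusted p = 0.00867, edgeR). Plxna2 had 30.8 and 39.4 TPM in EH, against 22.6 and 24.4 TPM in wild-type motor neurons, by 0.60 ± 0.14 (adjusted p = 0.0246, edgeR), a call that held in 6 of the 12 alternatives. Plxnd1 moved the other way, and the summed level of the 3 plexins was 38.3 and 46.5 TPM in EH, against 32.6 and 34.2 TPM in wild-type motor neurons.

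Some markers of other cells were also higher in EH. Of 5 neural progenitor markers tested, 2 were called higher in EH and none was called lower. The 3 not called went both ways, with log2 fold changes of 1.07 for Sox2, -0.30 for Nes and -1.93 for Olig2 (adjusted p = 0.13, 0.096 and 0.0852, edgeR). Fabp7, which marks radial glia, had 2.84 and 5.14 TPM in EH, against 0.58 and 0.19 TPM in wild-type motor neurons, and Pax6, a progenitor transcription factor, had 19.25 and 9.72 TPM in EH, against 5.30 and 3.72 TPM in wild-type motor neurons (10.1-fold and 2.64-fold higher; adjusted p = 0.0144 and 0.0212, edgeR). The summed level of all 6 progenitor markers listed was 44.2 and 31.6 TPM in EH, against 25.4 and 19.8 TPM in wild-type motor neurons. Of 3 fibroblast and meningeal markers tested, 1 was higher, the collagen gene Col1a2, with 13.7 and 14.0 TPM in EH, against 5.46 and 4.04 TPM in wild-type motor neurons (2.88-fold; adjusted p = 0.00473, edgeR). The sum of the 5 fibroblast markers listed was 21.1 and 24.7 TPM in EH, against 11.95 and 11.7 TPM in wild-type motor neurons, and the fibroblast markers Dcn and Lum were at or below 0.26 TPM in these 4 libraries. No marker of either list was at 0 in all motor neuron libraries. Of 6 pan-neuronal markers 1 (Snap25) was lower, as was 1 of 4 floor plate markers (Ntn1), and 0 of 6 ES cell markers and 0 of 2 neural crest markers were called by edgeR. The summed ES cell markers differed between the 2 EH libraries, at 207 and 77.4 TPM, against 130 and 142 TPM in wild-type motor neurons. The part of all these markers, and of the motor neuron markers, in the higher values of EH was not tested.

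**Figure D2:**
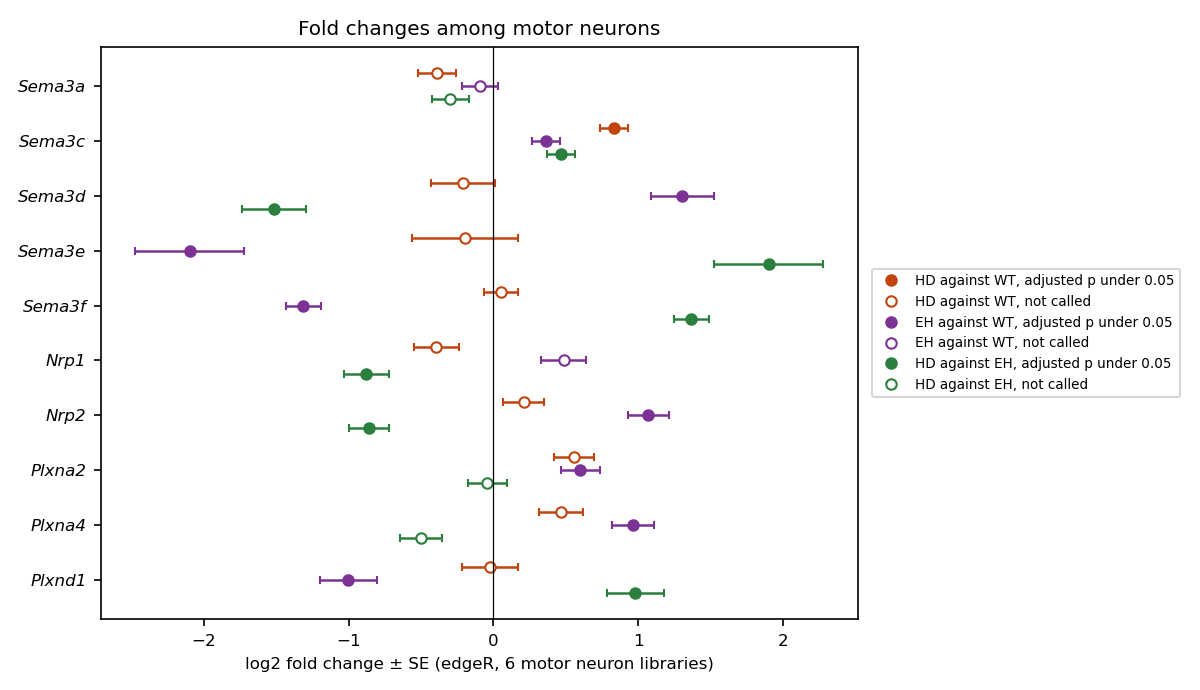
Log2 fold change ± SE of each gene for HD against wild type, EH against wild type and HD against EH (edgeR fit of the 6 motor neuron libraries); filled points have an adjusted p under 0.05. In EH, Sema3d, Nrp2 and Plxna4 lie at or near 1 and above while Sema3e, Sema3f and Plxnd1 lie at or below -1, and in HD the 1 filled point is Sema3c at 0.83.

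The other genes of the pathway are read against the same shares in EH, 21.2% of all genes called, 9.61% higher and 11.6% lower. Of other class 3 semaphorins and plexins, Plxnc1 was higher (0.60 ± 0.17, edgeR adjusted p = 0.049) and Plxnb1, a receptor of Sema4d, was lower (-0.44 ± 0.09, adjusted p = 0.0184), of 6 tested. Of 13 transmembrane and anchored semaphorins, Sema5a was higher and 4 were lower, among them Sema7a (-0.68 ± 0.11) and Sema4f (-0.71 ± 0.15). Of 23 co-receptors and mediators, 2 were higher and 1 lower. Cntn2, an axonal adhesion molecule also called TAG-1, had 363 and 571 TPM in EH, against 151 and 116 TPM in wild-type motor neurons (log2 fold change 1.83 ± 0.23, edgeR adjusted p = 0.00603). Furin, the protease that cleaves class 3 semaphorins, was lower at -0.56 ± 0.14 on the log2 scale (adjusted p = 0.0316, edgeR).

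Of 6 VEGF ligands and receptors tested, 2 were lower in EH. Vegfa, the ligand that shares Nrp1 with Sema3a, had 13.6 and 11.9 TPM in EH, against 35.9 and 23.6 TPM in wild-type motor neurons, a log2 fold change of -1.35 ± 0.16 (adjusted p = 0.0059, edgeR). Its receptor Flt1 was lower, at -1.16 ± 0.32 on the log2 scale (adjusted p = 0.0461, edgeR), at 0.79 and 0.55 TPM in EH, against 2.05 and 1.26 TPM in wild-type motor neurons. Both fell in the libraries with lower trophoblast markers, whose part was not tested.

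The lines were also compared with each other, which tests whether their differences from wild type differ. Of the 10 genes, 4 were higher in HD than in EH (Sema3c, Sema3e, Sema3f and Plxnd1) and 3 were lower (Sema3d, Nrp1 and Nrp2), against 21.2% of genes called in either direction, 11.8% higher and 9.43% lower. The median log2 fold change of the 10 was -0.17, against -0.01 over all genes tested. Sema3f lay at 54.2 and 62.9 TPM in HD, against 26.2 and 24.5 TPM in EH, a log2 fold change of 1.37 ± 0.12 (adjusted p = 0.00245, edgeR) that held under all 12 alternatives. Without HD replicate 1, 3 genes were still called (Sema3d, Sema3f and Plxnd1), and without HD replicate 2, 1 gene was (Sema3f).

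Sema3d had 34.2 and 27.01 TPM in HD, against 68.7 and 107 TPM in EH, with a log2 fold change of -1.52 ± 0.22 (adjusted p = 0.00758, edgeR). The neuropilins lay lower in HD as well, Nrp1 at -0.88 ± 0.15 and Nrp2 at -0.86 ± 0.14 on the log2 scale (adjusted p = 0.0119 and 0.0099, edgeR). Sema3e had 6.82 and 8.88 TPM in HD, against 2.96 and 1.25 TPM in EH, with 1.90 ± 0.38 (adjusted p = 0.0164, edgeR), and Plxnd1 was higher by 0.98 ± 0.20 (adjusted p = 0.0168, edgeR). Sema3c was higher in HD than in EH by 0.47 ± 0.10 (adjusted p = 0.0184, edgeR), so that its level was higher than wild type in both lines and highest in HD. Plxna2 differed between the lines by -0.04 ± 0.14 (adjusted p = 0.846, edgeR) and Plxna4 by -0.50 ± 0.14 (adjusted p = 0.0511, edgeR). Summed trophoblast markers were 446 and 589 TPM in HD, against 102 and 33.5 TPM in EH, and 6 of 6 were called higher in HD. Of the other marker lists, 4 of 7 motor neuron markers and 3 of 5 neural progenitor markers were lower in HD than in EH, 1 progenitor marker (Nes) was higher, and 1 of 3 fibroblast markers (Col1a2) was lower. The part of all these markers in the values of the 10 genes was not tested.

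In the rest of the pathway, read against 11.8% of all genes called higher and 9.43% called lower, HD lay above EH in 2 of 6 other class 3 semaphorins and plexins, one of which was Plxna3, a receptor of Sema3f signals, by a log2 fold change of 0.70 ± 0.15. Of 13 transmembrane and anchored semaphorins, 6 were higher in HD and 1, Sema5a, was lower. Of 23 co-receptors and mediators, 3 were higher and 2 lower. Chl1 had 39.2 and 35.3 TPM in HD, against 9.98 and 11.9 TPM in EH (log2 fold change 1.76 ± 0.13, edgeR adjusted p = 0.00187), and Cntn2 had 106 and 95.1 TPM in HD, against 363 and 571 TPM in EH (-2.20 ± 0.23, adjusted p = 0.00365). Vegfa and Flt1 were the 2 of 6 VEGF genes called, both higher in HD, by 1.37 ± 0.16 and 1.33 ± 0.33.

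Mnx1 regions lay within 50 kb of 6 of the 10 genes in wild-type motor neurons, 12 regions in all. They were near Sema3c (1), Sema3d (2), Nrp1 (2), Nrp2 (3), Plxna2 (1) and Plxna4 (3), and none was near Sema3a, Sema3e, Sema3f or Plxnd1. A region lay within that distance of 38.3% of 21887 coding genes and of 49.1% of the 2429 coding genes that span 100 kb or more, as 8 of these 10 do. At least 3 regions, the number at Nrp2 and Plxna4, were reached by 8.52% of those long genes. The labels list an antibody to GFP but no Mnx1 antibody and do not say how the factor was precipitated.

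The Mnx1 region of highest enrichment near these genes lay upstream of Sema3d. It spans 12365502 to 12366248 of chromosome 5 (mm10), with its summit 17.2 kb before the listed start and a fold enrichment over background of 5.02, the authors' own value per peak. A second region lies within Sema3d, 120.0 kb past the start (12502972 to 12503475, enrichment 4.27). At Nrp2 the regions stand 35 kb before the start, at the start and 45.1 kb past it, with enrichments of 4.14, 3.00 and 4.07, and the first is also within 50 kb of Pard3b. At Nrp1 they lie 129.7 kb past the start, within the gene (128488539 to 128488953 of chromosome 8), and 23.4 kb beyond its end, both at an enrichment near 3.1.

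The 3 regions at Plxna4, on chromosome 6, all lie within the gene (32231278 to 32231814, 32321426 to 32321917 and 32507177 to 32507699), with enrichments of 4.31, 4.98 and 4.29. At Plxna2 the region covers the start (194619714 to 194620116 of chromosome 1) and has the lowest enrichment of the 12, at 2.74. At Sema3c it lies 18.5 kb upstream (17556164 to 17556563 of chromosome 5, enrichment 3.04). The Mnx1 regions at the starts of Nrp2 and Plxna2 stand against 14.3% of 17492 listed starts with a Mnx1 region within 2 kb. With a minimum −log10 q of 5, 10 of the 12 regions at 4 genes were left, without those at Sema3c and Plxna2.

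Of the 12 Mnx1 regions, 9 overlapped an H3K27ac region, a mark of active promoters and enhancers, in both the HD and the wild-type list. The 3 others were the region upstream of Sema3c and that of Plxna4 at 32507177, which overlapped H3K4me1, a mark of enhancers, in both lists, and that of Plxna4 at 32321426, which overlapped none of the H3K4me1, H3K4me3, H3K27ac and H3K27me3 lists. H3K27ac was thus listed in HD at each of the 9 Mnx1 regions that carried it in wild type. Over the whole wild-type list, only 12.8% of 19174 H3K27ac regions overlapped none in HD, so most were kept anywhere. The share of all Mnx1 regions that overlap H3K27ac was not counted. Of the 6 genes with a Mnx1 region, 5 were called higher in EH and 1, Nrp1, was not called, while the 3 genes called lower had none. This is a count over 10 genes chosen by name, and no test was made of it. Of all genes tested, 9.61% were higher and 11.6% lower in EH, and the shares among all genes near a Mnx1 region were not counted. In HD, with the same genotype label, 1 of the 6 genes was called, Sema3c. The EH calls of Sema3c and Plxna2 held in 4 and 6 of 12 alternatives, and the Mnx1 regions of both had a −log10 q below 5.

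**Figure D3:**
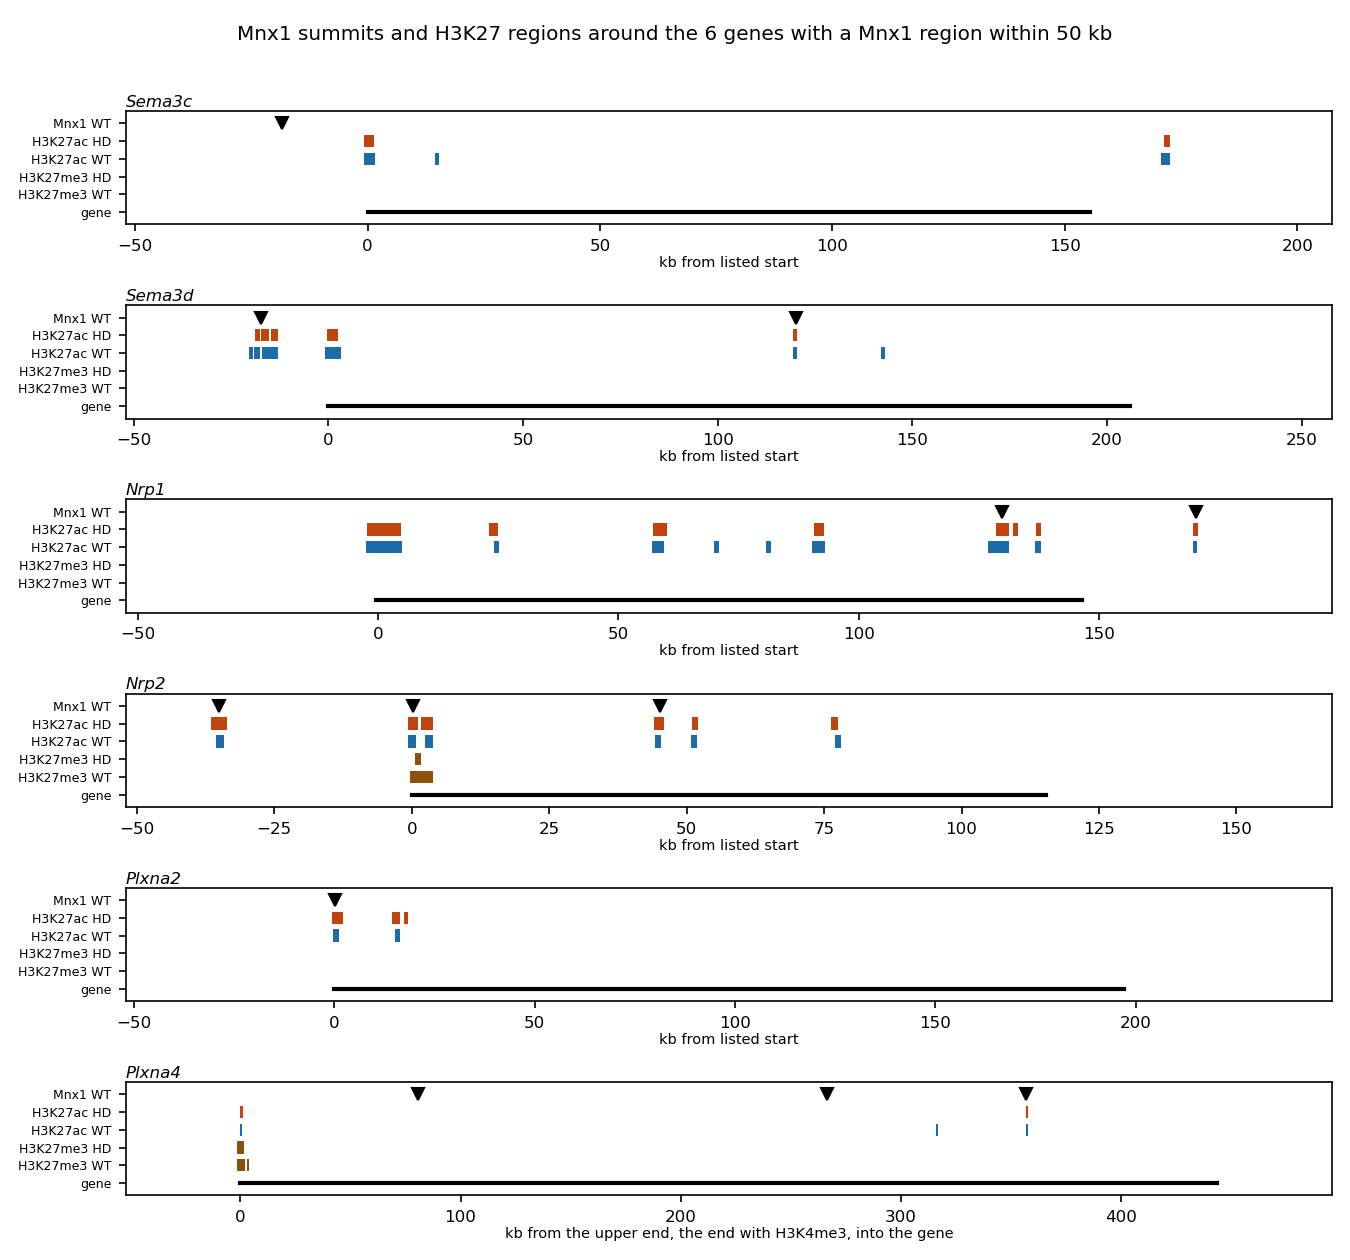
Position of the Mnx1 summits (triangles) and of H3K27ac and H3K27me3 regions (bars, drawn at least 1 kb wide; HD above wild type) around the 6 genes with a Mnx1 region within 50 kb, in kb from the listed start (Plxna4 from its upper end). Nrp1 holds the most H3K27ac regions, and the broad H3K27me3 region at the start of Nrp2 in wild type is a short one in the HD list.

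Each mark and genotype has a single list, which gives no replicate error for ChIP, and enrichments are not compared between lists. In the list labelled as wild-type H3K27ac, each peak is named K27ac_KO; the label was followed. H3K4me3, the mark of promoters, covered or lay within 2 kb of the start in all 10 genes in both genotypes (for Sema3f and Plxna4, whose starts were not listed, it lay at the upper end of the gene), against 63.0% of listed starts in HD and 63.8% in wild type. Within 50 kb, 19 regions were listed in each genotype (79.3% of coding genes in HD and 79.9% in wild type had at least 1, as did 94.9% and 95.4% of those that span 100 kb or more). H3K4me1 was near all 10 genes, with 207 regions in HD and 244 in wild type (80.8% of coding genes in HD and 82.0% in wild type had at least 1, as did 96% and 96.7% of those that span 100 kb or more), from 4 regions at Sema3e to 39 at Plxna4 in wild type.

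H3K27ac regions lay within 50 kb of 9 of the 10 genes in HD and of 9 in wild type, with 35 and 34 regions (71.2% of coding genes in HD and 69.7% in wild type, and 83.7% and 82.5% of the long ones). Plxnd1 had none in either. Nrp1, the gene of highest RNA level, had the most, 9 in HD and 9 in wild type, of which 7 in each overlapped a region of the other list. At least 9 were reached by 7.37% of long coding genes in wild type. The region over the Nrp1 start was 7.13 kb long in HD and 7.34 kb in wild type, and in each list it had the highest enrichment of any H3K27ac region near the 10 genes (7.31 in HD, 8.0 in wild type).

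At Sema3d, 5 H3K27ac regions were listed in HD and 6 in wild type. In each list 3 of them lie 13.9 to 19.9 kb upstream, where the Mnx1 region of highest enrichment lies too, and the others lie at the start and within the gene. Sema3c, higher in HD RNA, had 2 H3K27ac regions in HD and 3 in wild type, and the region over its start was listed in both. Sema3f had 4 in HD and 2 in wild type, of which 1 in each list lay in the gene body. The 2 HD regions of Sema3f that overlapped none in wild type lay outside the gene, with a −log10 q of 2.23 and 4.47. Sema3e had 2 H3K27ac regions in HD and 1 in wild type, all between 37.5 and 40.7 kb upstream, and none over its start.

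**Figure D4:**
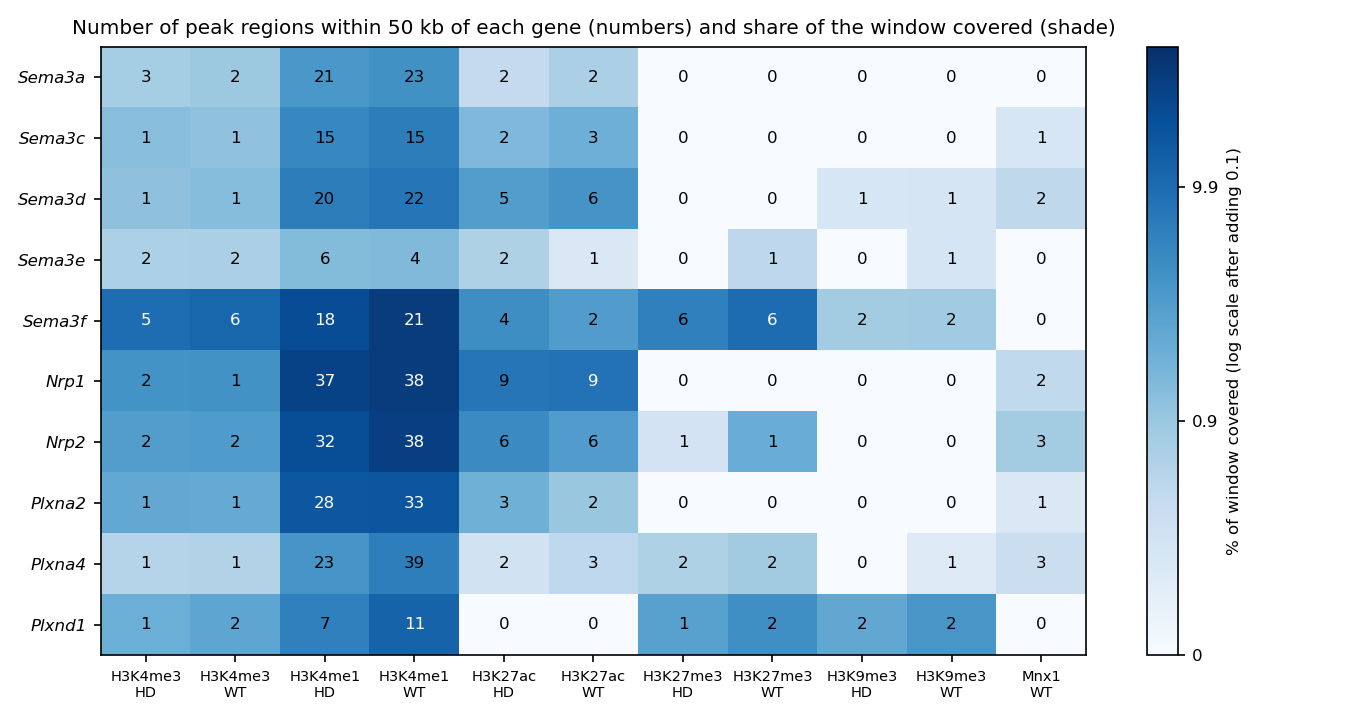
Number of listed regions within 50 kb of each gene (printed in each cell) for each mark in HD and in wild type (WT) and for Mnx1 in wild type; the shade is the percent of the window covered, on a log scale after adding 0.1. Plxnd1 is the row without H3K27ac, Sema3f has the most H3K27me3 regions (6 in each genotype), and H3K4me3 and H3K4me1 are listed in every row.

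H3K27me3, the mark of Polycomb repression, lay within 50 kb of 4 of the 10 genes in HD (Sema3f, Nrp2, Plxna4 and Plxnd1) and of 5 in wild type, where Sema3e was added. This stands against 36.6% of coding genes in HD and 47.9% in wild type, and 44.3% and 59.1% of the long ones. The whole HD list is the shorter one: of 9365 wild-type regions 49.0% overlapped none in HD, and of 5729 HD regions 3.86% overlapped none in wild type. With a minimum −log10 q of 5, H3K27me3 was left at 2 genes in HD and 3 in wild type.

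Sema3f had 6 H3K27me3 regions within 50 kb in HD and 6 in wild type, a number reached by 4.50% of coding genes in wild type. In each list 2 of the 6 lay in the gene body. The regions covered 7.88 kb in HD, against 12.68 kb in wild type, and 2 of the wild-type regions overlapped none in HD. At the upper end of Sema3f, H3K27me3, H3K4me3 and H3K27ac were listed in both genotypes. At the start of Nrp2, the H3K27me3 region was 0.42 kb long in HD, against 4.21 kb in wild type, where it lay under the Mnx1 region as well. At the upper end of Plxna4, the longest region was 1.84 kb in HD, against 3.60 kb in wild type. The whole list held 5729 regions over 12.9 Mb in HD, against 9365 regions over 20.3 Mb in wild type. The median region length was 1426 bases in HD, against 1254 bases in wild type, so by the median HD regions were not shorter.

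Sema3e and Plxnd1, a ligand and its receptor, both had H3K27me3 over a start that also carried H3K4me3 and lacked H3K27ac in wild type. In wild type, 18.8% of listed starts had H3K27me3 within 2 kb and 46.0% had H3K27ac. The start of Nrp2 and the upper ends of Sema3f and Plxna4 carried H3K27me3 and H3K4me3 as well, together with H3K27ac. At Sema3e the H3K27me3 region (14025213 to 14026607 of chromosome 5, −log10 q of 3.31) was in the wild-type list and not in the HD list. At Plxnd1 the region was 3.77 kb long in HD and 5.59 kb in wild type, with enrichments of 7.13 and 11.2 within their lists. Plxnd1 was also the gene of the 10 with H3K9me3, a mark of heterochromatin, over its start in both genotypes, against 5.86% of listed starts in HD and 8.72% in wild type. RNA of Plxnd1 was 7.47 and 9.31 TPM in HD, against 8.26 and 8.12 TPM in wild-type motor neurons, and in a bulk culture these marks need not lie in the same cells.

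The promoters of Sema3e and Plxnd1 are printed because H3K4me3 and H3K27me3 meet there without H3K27ac in wild type. That of Sema3e is chr5:14025026-14025325 on the plus strand and that of Plxnd1 is chr6:115994956-115995255 on the minus strand, printed 5′ to 3′ in the direction of the gene.
Sema3e: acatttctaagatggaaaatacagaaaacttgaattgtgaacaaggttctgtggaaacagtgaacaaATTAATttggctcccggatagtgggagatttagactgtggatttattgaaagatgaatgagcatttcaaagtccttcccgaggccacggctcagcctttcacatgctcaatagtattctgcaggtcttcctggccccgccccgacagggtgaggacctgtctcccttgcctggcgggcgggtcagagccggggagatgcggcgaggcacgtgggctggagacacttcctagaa
Plxnd1: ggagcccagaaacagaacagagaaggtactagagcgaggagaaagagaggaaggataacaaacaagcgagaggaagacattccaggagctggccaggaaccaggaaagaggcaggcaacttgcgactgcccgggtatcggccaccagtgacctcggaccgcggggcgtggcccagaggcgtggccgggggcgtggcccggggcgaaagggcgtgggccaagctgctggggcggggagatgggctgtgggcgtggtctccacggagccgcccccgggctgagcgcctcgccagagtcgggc
The Sema3e promoter has 50.7% G and C, with a TAAT match on each strand that share letters, 183 and 181 bases before the start. The Plxnd1 promoter has 67.0% G and C and holds no TAAT. The observed to expected CpG ratio is 0.58 in Sema3e and 0.72 in Plxnd1, against a median of 0.57 over all promoters.

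H3K9me3 regions within 50 kb lay near 3 of the 10 genes in HD (Sema3d, Sema3f and Plxnd1; 47.2% of coding genes and 67.3% of the long ones) and near 5 in wild type, where Sema3e and Plxna4 were added (58.7% of coding genes and 75.1% of the long ones). With a minimum −log10 q of 5, only the regions of Plxnd1 were left in either genotype. The labels list 1 H3K9me3 library per genotype, against 2 for each of the other marks.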

How the data were processed

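RNA was measured in 8 libraries, poly(A)-selected and stranded per the labels' protocols, and ChIP-seq was deposited as peak lists. The submitters' processing notes name the mm10 build and the tools STAR, RSEM, DESeq2, Subread, featureCounts, Trim Galore, Bowtie2, MACS2 and SAMtools, without versions or roles, and the strand setting in counting is not given in the sources used here. The deposited RNA files give an expected count and a TPM per gene, per the file headers. The authors' peak lists give for each peak its positions in bases, a ratio (fold enrichment) and −log10 of the q-value. How libraries were pooled for each list is not given in the sources used here. Entries with the same start and end were counted as 1 region.

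After rounding, expected counts went into the quasi-likelihood test of edgeR 4.0.16 (R 4.3.3) with TMM scaling and filterByExpr. Comparisons among motor neurons came from 1 fit of 6 libraries (15565 genes, 3 residual degrees of freedom), and ES cells were compared in a fit of all 8 libraries (17770 genes). Adjusted p-values are Benjamini-Hochberg over all genes tested, with a threshold of 0.05. Each SE was derived from the fold change and its F statistic. Peaks counted as near a gene when 1 base or more lay within 50 kb of it, and at a start within 2 kb. The code was tested on simulated data. Alternatives were DESeq2 1.42.0, its size factors, no filter, a replicate block, leaving out each library, the 4 libraries of a comparison alone, limma 3.58.1 on log2(TPM + 1), and other peak windows and thresholds. Named genes are the 10, and up to 4 per pathway list and comparison by smallest adjusted p. For each gene called among motor neurons, the nearest of the 10 and 2 other genes by correlation were taken, and their values are given for some. The 10 genes, the lists and the tests were chosen with earlier results of these data known. Annotated genes that overlap the 10 had at most 0.23 TPM where measured.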

Additional observations from a re-analysis of the deposited data

Results flagged for a closer look

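Of the 10 genes, 7 differed between the 2 lines that carry the same genotype label, by the test of HD against EH in 1 edgeR fit, which is the test of whether their differences from the shared wild-type libraries differ. The log2 fold changes of HD over EH were 0.47 for Sema3c, -1.52 for Sema3d, 1.90 for Sema3e, 1.37 for Sema3f, -0.88 for Nrp1, -0.86 for Nrp2 and 0.98 for Plxnd1. For all 7 the 2 HD libraries did not overlap the 2 EH libraries, which held for 61.8% of all genes tested. Sema3d, Sema3e, Sema3f and Plxnd1 had values in HD that overlapped those of wild type, so that for these genes it was EH that stood apart. The EH libraries were also the deepest of the motor neuron libraries, and the part of depth was not tested.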

How the results depend on the processing

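Of 120 values (10 genes under 12 alternatives), 105 kept direction and call in HD against wild type, 91 in EH against wild type and 103 in HD against EH, as did 138 of 140 against ES cells. The values that changed sign were all of uncalled genes: with limma on log2(TPM + 1), Sema3e against ES cells (0.144), Plxnd1 in HD against wild type (0.024) and Plxna2 in HD against EH (0.005). Leaving out 1 library at a time gave ranges that cross 0 in HD against wild type for Plxnd1 (-0.292 to 0.201), Sema3f (-0.105 to 0.194) and Sema3e (-0.377 to 0.011), in EH against wild type for Sema3a (-0.206 to 0.036) and in HD against EH for Plxna2 (-0.221 to 0.149). On the limma scale the median of all genes shifted by 0.52 in wild-type motor neurons against ES cells, with 8677 genes higher and 3831 lower.

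In HD against wild type, 27 genes were called, against 182 with DESeq2, 142 without the filter, 336 with the 4 libraries alone and 0 to 323 without 1 library. Of the 10 genes, 0 were called with DESeq2's size factors or limma, 2 with DESeq2 or the 4 libraries alone, and 0 to 2 without 1 library. In EH against wild type, 3301 genes were called, 2033 with limma, 2121 with the 4 libraries alone and 96 to 5925 without 1 library, and of the 10 genes 5 were called with limma and 1 to 9 without 1 library. In HD against EH, 3303 genes were called, 2014 with the 4 libraries alone and 280 to 5209 without 1 library, and 1 to 8 of the 10 genes. Against ES cells, 11942 to 13416 genes and 9 or 10 of the 10 were called without 1 library. The causes of these shifts were not tested beyond the fewer libraries that some of these fits hold.

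Samples of a number did not deviate together in all pairs of groups. The correlations of deviations ran from -0.314 for HD with EH to 0.34 for HD with wild type. These values cannot settle whether the numbers pair the libraries of some groups, and the labels do not say so. With the replicate block, 0 genes and 0 of the 10 were called in HD against wild type, 2080 genes and 7 of the 10 in EH against wild type, and 2154 genes and 7 of the 10 in HD against EH.

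With a minimum −log10 q of 5, H3K27me3 lay near 2 genes in HD and 3 in wild type, and H3K9me3 near 1 in HD and 1 in wild type; within the gene body alone, H3K9me3 lay at 3 in wild type. Other peak settings moved the counts of genes by 1.5 times or less.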

Other observations

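The pairs of ligands and receptors moved unevenly in EH. For Sema3e and Plxnd1 both members were lower. For Sema3f and Nrp2 the ligand was lower, at 26.2 and 24.5 TPM in EH, against 55.4 and 51.8 TPM in wild-type motor neurons, while the receptor was higher, at 48.0 and 64.5 TPM in EH, against 27.3 and 27.04 TPM in wild-type motor neurons. For Sema3a and Nrp1 neither member passed the edgeR test. These pairings are textbook knowledge, and no test of the pairs was made.

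Over the 6 motor neuron libraries, the gene of the 10 whose log2(TPM + 1) levels ran closest to Sema3d was Nrp1 (Pearson r = 0.95, 6 libraries), to Nrp2 it was Plxna4 (0.95) and to Sema3c it was Plxna2 (0.80). Among 9850 other genes, those closest to Sema3c were Rasal2 (0.992) and Mark3 (0.981), those closest to Nrp1 were Arhgap28 (0.992) and Igfbp2 (0.991), and those closest to Nrp2 were Zfp3 (0.998) and Jmjd1c (0.997). With 6 libraries, of which the EH libraries stand apart, such values are descriptions of these libraries.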
